A study of Arabidopsis thaliana with 12 samples.

Results

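The genes described here are 31 chloroplast-encoded genes of *Arabidopsis thaliana* that make or serve the gene expression machinery of the chloroplast, out of 37813 genes in the deposited table of read counts. They were chosen by name: the RNA polymerase genes *rpoA*, *rpoB*, *rpoC1* and *rpoC2*, the ribosomal protein genes *rps* and *rpl*, and *matK*, *clpP*, *accD*, *ycf1* and *ycf2*. Of them, 26 passed the filter on low counts (5 or more reads in 3 or more of the 12 samples), and 5 had 0 reads in every library. RNA was sequenced from whole rosettes of 4-week-old plants grown under an 8 h photoperiod. All plants carried the Col-0 gl1 background and were either wild-type or *jac1*, a mutant of the J-domain protein JAC1 that chloroplast relocation needs. Each genotype was harvested without treatment (labelled non-treated, here untreated) or 30 min after 100 mJ cm-2 of UV-C radiation, a short-wave ultraviolet used as an oxidative stress. Each of the 4 groups held 3 biological replicates of at least 4 pooled rosettes, and the mutant was represented by a single line, *jac1-1*.

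Chloroplasts keep a small genome of their own and read it with a pair of RNA polymerase types. One, the plastid-encoded polymerase (PEP), is of bacterial type, has core subunits encoded by *rpoA*, *rpoB*, *rpoC1* and *rpoC2*, and needs sigma factors and other proteins imported from the cytosol. The other, the nuclear-encoded polymerase (NEP), is of phage type. In green leaves PEP reads most photosynthesis genes, while NEP is known for reading *rpoB* with *rpoC1* and *rpoC2* behind it, *accD*, and in part *clpP*. These 5 genes are called NEP-read below on that ground, as a label from the literature, since the polymerase at work was not measured here. Plastid ribosomes are assembled from proteins of both genomes, and plastid messengers carry no stable poly-A tail.

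The sequenced RNA had been captured on poly-T beads, so a run of adenines within a transcript is the kind of sequence such beads can hold. For that reason the 30 bases around the longest run of A in the coding strand are shown for 6 members that lie at the ends and in the middle of the range of change after UV-C. The run is in capitals, the letters are RefSeq's TAIR10.1 chloroplast genome, and coordinates are those of that build, which matched the gene coordinates of the count table. The stretches lie in exons at Pltd:25674-25703 (*rpoB*, minus strand), Pltd:17917-17946 (*rpoC2*, minus strand), Pltd:57364-57393 (*accD*, plus strand), Pltd:78087-78116 (*rpoA*, minus strand), Pltd:113449-113478 (*rpl32*, plus strand) and Pltd:2963-2992 (*matK*, minus strand).
rpoB: cgataaggagAAAAAAAAAAtaggatcaaa
rpoC2: gagtagagAAAAAAAAAAAAAggattgaac
accD: tttttgatAAAAAAAAAAAAAtttttgaga
rpoA: aacctaagAAAAAAAAAAAAAAcaaaagaa
rpl32: atggcagttccAAAAAAAcgtacttctatc
matK: tttttatattAAAAAAAAAtcaattttgaa
The runs held 10 bases in *rpoB*, 13 in *rpoC2*, 13 in *accD*, 14 in *rpoA*, 7 in *rpl32* and 9 in *matK*. *rpoC2* and *accD*, with runs of the same length, differed in their change after UV-C, as given below. Over the 24 members with over 3 reads in 1 or more untreated libraries of both genotypes, the length of the longest run and the log2 fold change (FC) after UV-C in the wild type had a Spearman's rho of 0.23, and the share of A and T and the same log2 FC one of 0.15. Against the level per kb in the wild type, the longest run had a rho of -0.50 before treatment and -0.65 after UV-C. These values describe genes of the same libraries, which are not independent replicates, and no p is given for them. Only runs within the annotated exons were measured, and capture through runs of A was not tested.

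Between 20897905 and 40445085 reads were counted per library, with every UV-C library below every untreated one. Members took 1357 to 1979 reads in an untreated library and 13406 to 20022 in a UV-C library, so counting error was large for the weak members before treatment. Transcripts of *JAC1* were present in the mutant at 151 ± 13.98 CPM (reads of a gene scaled to a common library total; SD, n = 3), against 93.7 ± 5.55 CPM in the wild type without treatment, so its level does not serve as a check of the labels. Summed markers of leaf tissue lay between 23834 and 35788 CPM in all libraries, root markers at or under 0.0588 CPM, and flower markers at 1.66 to 3.11 CPM in the wild type and 0.490 to 0.684 CPM in *jac1*. All CPM below were scaled with edgeR's TMM factors over all genes.

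Members made up 0.00388 ± 0.000487% of all reads in the untreated wild type and 0.0727 ± 0.0109% after UV-C (SD, n = 3). The mutant gave 0.00477 ± 0.000298% and 0.0702 ± 0.00957%. In the same libraries all chloroplast-encoded genes together went from 0.0183 ± 0.00170% to 2.06 ± 0.252% in the wild type and mitochondrion-encoded genes from 0.00695 ± 0.000429% to 0.483 ± 0.0668%. The nuclear gene of 18S ribosomal RNA, AT3G41768, went from 0.00992 ± 0.00117% to 2.44 ± 0.107%. A higher level of chloroplast transcripts and a larger share of RNA without poly-A tails in the UV-C libraries cannot be told apart in these data, and in bulk samples neither can fewer cells of a type and less RNA per cell. Changes are therefore given on 2 scales, first against all genes of the library and then against the other chloroplast-encoded genes of the library.

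Against all genes, every one of the 26 members had a higher level after UV-C in both genotypes. A gene was called when its false discovery rate was under 0.01 and its log2 FC beyond 1 in size, by the quasi-likelihood test of edgeR with p-values adjusted after Benjamini-Hochberg over 20105 genes. All 26 members were called higher in the wild type, where 7.02% of all genes tested were higher and 2.26% lower, and all 26 in *jac1*, where 8.97% were higher and 4.75% lower. *rps15*, *rps16* and *rps18* passed the filter only through their UV-C libraries and so had to be higher, and the other 23 were all called higher in both genotypes. The median log2 FC of these 23 was 4.74 in the wild type (all genes tested, 0.00; 73 chloroplast-encoded genes, 6.27) and 4.38 in *jac1* (all genes tested, 0.05; chloroplast-encoded genes, 6.12). In none of these 23 did a UV-C sample lie within the range of the untreated samples of the same genotype. On the higher side that held for 28.3% of all genes tested in the wild type and 34.3% in *jac1*. The same was seen in *rps15*, *rps16* and *rps18*, where the filter favoured it.

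**Figure D1:**
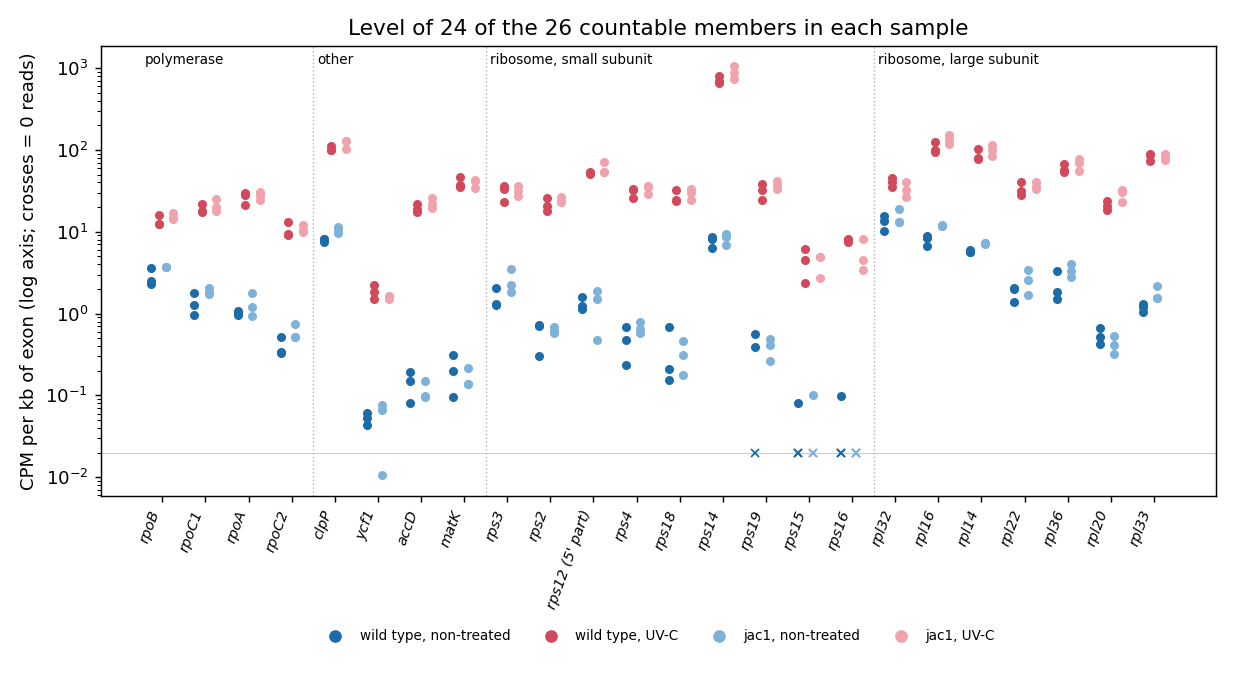
Level of 24 of the 26 members with reads in each of the 12 samples, in CPM per kb of exon on a log axis, grouped by role and ordered by the log2 FC after UV-C in the wild type. Each point is a sample and crosses mark samples with 0 reads; for every gene plotted all 3 UV-C samples lie above all 3 untreated samples of the same genotype, with the narrowest gap in *rpl32*.

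The 4 genes for the polymerase core had a median log2 FC of 4.27 in the wild type and 3.86 in *jac1*, and *rpoB* had the smallest of the 4 in both. *rpoB* (ATCG00190), which encodes the beta subunit, had 7.95, 7.34 and 11.6 CPM in the untreated wild-type samples and 51.2, 39.5 and 40.2 CPM after UV-C. In *jac1* it had 11.9, 12.1 and 11.8 CPM, then 47.4, 55.3 and 45.9 CPM. Groups of a genotype did not overlap, and the log2 FC was 2.29 (standard error, SE, 0.15, adjusted p = 2.98e-08 by the quasi-likelihood test of edgeR, Benjamini-Hochberg adjusted) in the wild type and 2.05 (SE 0.14, adjusted p = 4.95e-08) in the mutant.

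*rpoC1* (ATCG00180) and *rpoC2* (ATCG00170) encode the beta' and beta'' subunits and lie directly behind *rpoB*. For *rpoC1* the wild type gave 2.63, 1.94 and 3.65 CPM without treatment and 44.9, 35.3 and 36.7 CPM after UV-C, and *jac1* 3.61, 4.14 and 3.58 CPM and then 41.0, 51.9 and 37.1 CPM. *rpoC2* stood at 1.37, 1.42 and 2.16 CPM in the wild type and at 54.1, 39.1 and 38.1 CPM after UV-C, with 2.15, 3.05 and 2.13 CPM and 41.5, 50.2 and 43.3 CPM in the mutant. The 3 genes ended at nearly the same CPM from starting levels that fell from *rpoB* to *rpoC2*, so their log2 FC rose in that order: 3.84 (SE 0.18) for *rpoC1* and 4.74 (SE 0.19) for *rpoC2* in the wild type, 3.52 (SE 0.18) and 4.20 (SE 0.18) in *jac1*. *rpoA* (ATCG00740), the alpha subunit, lies in the ribosomal protein cluster and is not NEP-read. It had 0.956, 1.06 and 0.991 CPM in the untreated wild type and 29.5, 27.9 and 20.9 CPM after UV-C, a log2 FC of 4.70 (SE 0.18). Its samples in *jac1* had 1.74, 1.20 and 0.938 CPM and then 27.9, 29.9 and 24.3 CPM, a log2 FC of 4.38 (SE 0.18). The highest adjusted p of these 3 genes in either genotype was 1.67e-09, from the same test.

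*clpP* and *accD*, the NEP-read genes outside the polymerase, differed widely in their change. *clpP* (ATCG00670) encodes a proteolytic subunit of the Clp protease of the stroma. Its wild-type samples had 4.37, 4.85 and 4.85 CPM without treatment and 65.8, 58.6 and 59.7 CPM after UV-C, and those of *jac1* 6.73, 5.75 and 6.31 CPM and 75.8, 76.1 and 60.9 CPM. The log2 FC was 3.71 (SE 0.10) and 3.50 (SE 0.098). *accD* (ATCG00500) encodes the carboxyltransferase beta subunit of the plastid acetyl-CoA carboxylase, which starts fatty acid synthesis. It was counted at only 5 to 11 reads per untreated library, or 0.217, 0.118 and 0.287 CPM in the wild type and 0.145, 0.218 and 0.142 CPM in *jac1*. After UV-C it had 32.2, 25.6 and 27.8 CPM and 32.4, 38.0 and 28.7 CPM, a log2 FC of 7.09 (SE 0.20) and 7.58 (SE 0.20). The NEP-read label therefore did not mark a single size of change: the median log2 FC of the 5 genes was 3.84 in the wild type against 5.10 for the 18 other members that passed the filter on untreated libraries, and 3.52 against 4.93 in *jac1*, but *accD* exceeded all of these 18 except *matK*. These medians are a description of chosen genes and carry no test.

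Members with other tasks included the largest change with reads in all untreated samples. *matK* (ATCG00040) encodes a maturase that splices introns of chloroplast transcripts. Its samples had 0.152, 0.497 and 0.313 CPM in the untreated wild type and 73.9, 59.3 and 55.7 CPM after UV-C, and 0.218, 0.218 and 0.341 CPM and then 66.9, 66.2 and 54.8 CPM in *jac1*. That made a log2 FC of 7.62 (SE 0.21, adjusted p = 4.22e-12 by the quasi-likelihood test of edgeR, Benjamini-Hochberg adjusted) and 7.91 (SE 0.22, adjusted p = 4.68e-12). *ycf1* (ATCG01130) encodes a large protein assigned to import across the envelope, and had the lowest untreated level per length of the 24 members with over 3 reads in an untreated library of both genotypes. It went from 0.326, 0.237 and 0.287 CPM to 12.1, 9.82 and 8.19 CPM in the wild type, a log2 FC of 5.12 (SE 0.29). In *jac1* it went from 0.411, 0.354 and 0.0568 CPM to 8.29, 8.83 and 8.11 CPM, a log2 FC of 4.88 (SE 0.30), and the lowest of these values rests on 2 reads. Of the 5361 bases of *ycf1*, 1030 lie in the inverted repeat, where reads were not counted.

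**Figure D2:**
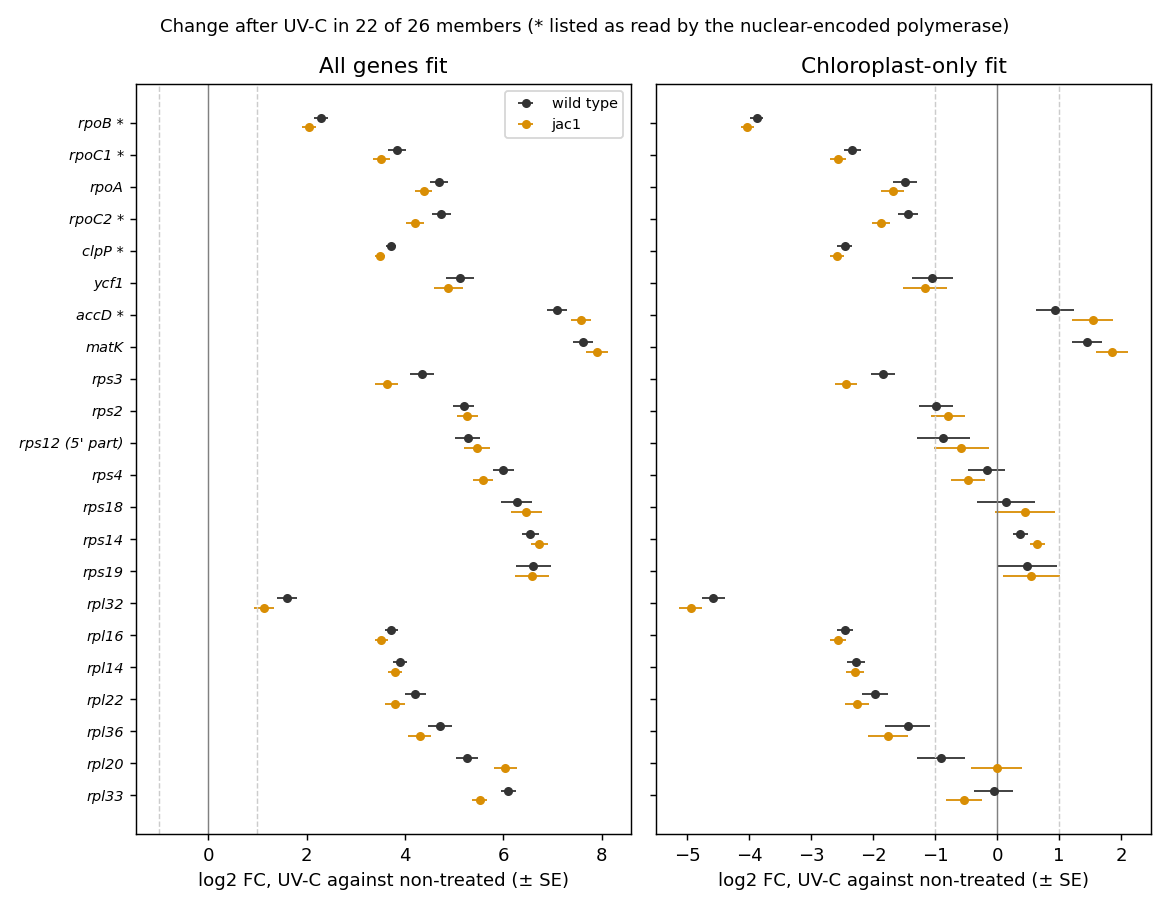
Log2 FC after UV-C of 22 of the 26 members, each with its standard error, in the fit over all genes (left) and in the fit over chloroplast-encoded genes alone (right), for the wild type (black) and *jac1* (orange); dashed lines mark a log2 FC of 1 in size. Every point on the left lies above 1, between 1.13 (*rpl32*, *jac1*) and 7.91 (*matK*, *jac1*), while most points on the right lie below 0; *rps15* and *rps16*, with at most 1 read in any untreated library, are left out.

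Ribosomal protein genes spanned nearly the whole range. Of the 22 listed, 18 could be tested, 11 of the small and 7 of the large subunit. The 3 that passed the filter only through UV-C libraries were all of the small subunit, and over its other 8 the median log2 FC was 5.24 in the wild type and 5.36 in *jac1*, against 4.21 and 3.80 over the 7 of the large subunit. *rpl32* (ATCG01020), a gene of the large subunit, had the smallest change of all members. Its samples had 2.13, 2.51 and 1.64 CPM in the untreated wild type and 7.19, 6.49 and 5.55 CPM after UV-C, a log2 FC of 1.61 (SE 0.20, adjusted p = 2.20e-05 by the quasi-likelihood test of edgeR, Benjamini-Hochberg adjusted). In *jac1* it had 3.03, 2.07 and 2.10 CPM and then 6.38, 5.22 and 4.21 CPM, a log2 FC of 1.13 (SE 0.21, adjusted p = 3.30e-04). This call was lost when the first UV-C library of *jac1* was left out (log2 FC 0.96), and 25 members were then called.

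*rpl16* (ATCG00790) and *rpl14* (ATCG00780) had the next smallest changes of the ribosomal protein genes in the wild type. *rpl16* had 3.58, 2.77 and 3.47 CPM in the untreated wild type and 51.5, 38.0 and 40.6 CPM after UV-C, with 4.82, 4.82 and 4.89 CPM and then 55.8, 62.7 and 48.3 CPM in *jac1* (log2 FC 3.73, SE 0.14, and 3.52, SE 0.13). *rpl14* had 2.24, 2.11 and 2.06 CPM and then 38.2, 28.5 and 29.5 CPM in the wild type, and 2.59, 2.67 and 2.70 CPM and then 36.7, 42.6 and 31.5 CPM in *jac1* (log2 FC 3.91, SE 0.14, and 3.80, SE 0.14). Both are neighbours in the same cluster and encode proteins of the large subunit. At the other end stood 3 genes of the small subunit, *rps19* (ATCG00820), *rps14* and *rps18* (ATCG00650).

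*rps14* (ATCG00330) lies behind the photosystem I genes *psaA* and *psaB* and was the most abundant member after UV-C, on CPM and per length. It had 1.93, 2.60 and 2.45 CPM without treatment and 243.6, 213.0 and 196.4 CPM after it in the wild type, a log2 FC of 6.55 (SE 0.17). The mutant gave 2.61, 2.81 and 2.08 CPM and then 260.3, 317.5 and 221.2 CPM, a log2 FC of 6.73 (SE 0.17). For *rps19*, counts before treatment were between 0 and 6 reads per library: 0.109, 0 and 0.156 CPM in the wild type and 0.0726, 0.136 and 0.114 CPM in *jac1*. After UV-C they were 10.8, 8.94 and 6.82 CPM and 10.5, 11.7 and 9.40 CPM, giving a log2 FC of 6.61 (SE 0.35) and 6.58 (SE 0.35). *rps18*, with 2 to 8 reads per untreated library, went from 0.0652, 0.0473 and 0.209 CPM to 9.94, 7.56 and 7.24 CPM in the wild type and from 0.0968, 0.0545 and 0.142 CPM to 10.2, 9.17 and 7.55 CPM in *jac1* (log2 FC 6.27, SE 0.31, and 6.47, SE 0.32). The standard errors of these 3 genes, up to 0.35, were as large as the differences between them.

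*rps15* and *rps16* had at most 1 read in any untreated library. Over the 3 wild-type samples *rps16* had 1 read before and 120 after UV-C, a ratio of library-size corrected counts of 239 (95% counting interval 42.0 to 9507), and *rps15* 1 and 76 reads, a ratio of 151 (26.3 to 6050). In *jac1* *rps15* had 1 and 64 reads (ratio 125, interval 21.7 to 5029). *rps16* had 0 and 76 reads there, a 49.6-fold rise when the group before treatment is set to the floor of 3 reads over its libraries. The lower end of its 95% counting interval was 39.4. The remaining 10 ribosomal protein genes, from *rps2* to *rpl36*, had a log2 FC between 4.21 (*rpl22*) and 6.10 (*rpl33*) in the wild type and between 3.63 (*rps3*) and 6.04 (*rpl20*) in *jac1*. *rps3* and *rpl22* share 16 bases, in which reads were not counted for either.

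*rpl2*, *rpl23*, *ycf2*, *rps7* and the part of *rps12* that lies apart from its first exon (ATCG00905) had 0 reads in all 12 libraries. Each lies wholly in the inverted repeat of the chloroplast genome (Pltd:84171-110434 and Pltd:128215-154478, 26264 bases each) and has an identical copy there. Reads with several alignments were not counted, so these zeros are no measure of expression. *rps19* has 113 of its 279 bases in the repeat.

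The change was also read along the genes of a cluster. The genes *rpoB*, *rpoC1*, *rpoC2*, *rps2*, *atpI*, *atpH*, *atpF* and *atpA* follow each other on the minus strand, the last 4 encoding subunits of ATP synthase. From *rpoB* the log2 FC in the wild type was 2.29, 3.84, 4.74, 5.195, 6.27, 6.65, 6.79 and 6.27, and in *jac1* 2.05, 3.52, 4.20, 5.27, 6.12, 6.80, 6.85 and 6.28 (SE 0.13 to 0.22). In both genotypes it thus rose over the first 7 genes of the series and was lower again in *atpA*. The untreated level per length did not fall steadily along it: *rpoB* had 2.78 ± 0.712 CPM per kb in the wild type, *rpoC1* 1.34 ± 0.421, *rpoC2* 0.400 ± 0.108 and *rps2* 0.579 ± 0.242 (SD, n = 3), and *atpH* 5.25. After UV-C the same genes had 13.6 ± 2.04 (*rpoB*), 19.1 (*rpoC1*), 10.6 ± 2.18 (*rpoC2*), 21.3 (*rps2*) and 528.0 CPM per kb (*atpH*), so that members of the cluster ended within about a factor of 2 of each other and far below the ATP synthase gene.

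**Figure D3:**
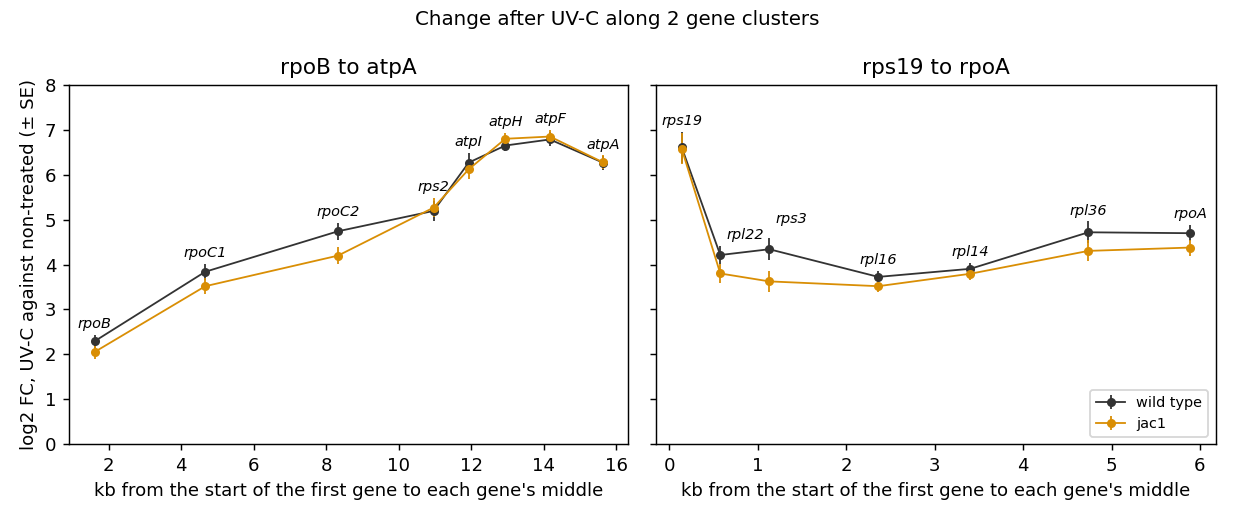
Log2 FC after UV-C (± SE) of genes in order of their position, plotted against the distance in kb from the start of the first gene, for the cluster from *rpoB* to *atpA* (left) and that from *rps19* to *rpoA* (right), in the wild type (black) and *jac1* (orange). The left series rises from 2.29 at *rpoB* to 6.79 at *atpF* in the wild type, and the right one falls from 6.61 at *rps19* to 3.73 at *rpl16* and ends at 4.70 at *rpoA*.

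In the ribosomal cluster from *rps19* to *rpoA*, the first gene, *rps19*, had a log2 FC of 6.61 in the wild type. It was followed by *rpl22* with 4.21, *rps3* with 4.34, *rpl16* with 3.73 and *rpl14* with 3.91, and further along by *rpl36* with 4.72 and *rpoA* with 4.70. In *jac1* *rps19* had 6.58, *rpl16* 3.52 and *rpoA* 4.38. *clpP* had 3.71 while its neighbours behind it, the first exon of *rps12* and *rpl20*, had 5.28 (SE 0.26) and 5.25 (SE 0.23). These neighbours had only 2 to 9 and 4 to 10 reads per untreated library. *rps14*, at 6.55, lay below *psaB* (7.33) and *psaA* (8.18), the genes before it. *rpl33* and *rps18*, side by side, had 6.10 and 6.27.

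Members with a high level before treatment had the smaller changes. To keep the level and the change from sharing libraries, the level in one genotype was set against the change in the other. Over the 24 members with over 3 reads in 1 or more untreated libraries of both genotypes, the level per kb in the untreated wild type and the log2 FC in *jac1* had a Pearson's r of -0.63 and a Spearman's rho of -0.68. With the genotypes exchanged, r was -0.66 and rho -0.73. *rps14* stood apart, with the fourth highest level per kb of the members before treatment (7.69 ± 1.16 CPM per kb in the wild type, SD, n = 3) and the 6.55 given above, and *ycf1* stood apart on the other side. The log2 FC of the 24 members in the wild type and in *jac1* had an r of 0.98. These are descriptions across genes, with no p, and genes of the same cluster may share a transcript. *rps18* is among the 24, although it passed the filter only through UV-C libraries, which favours a low level before treatment and a large change.

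**Figure D4:**
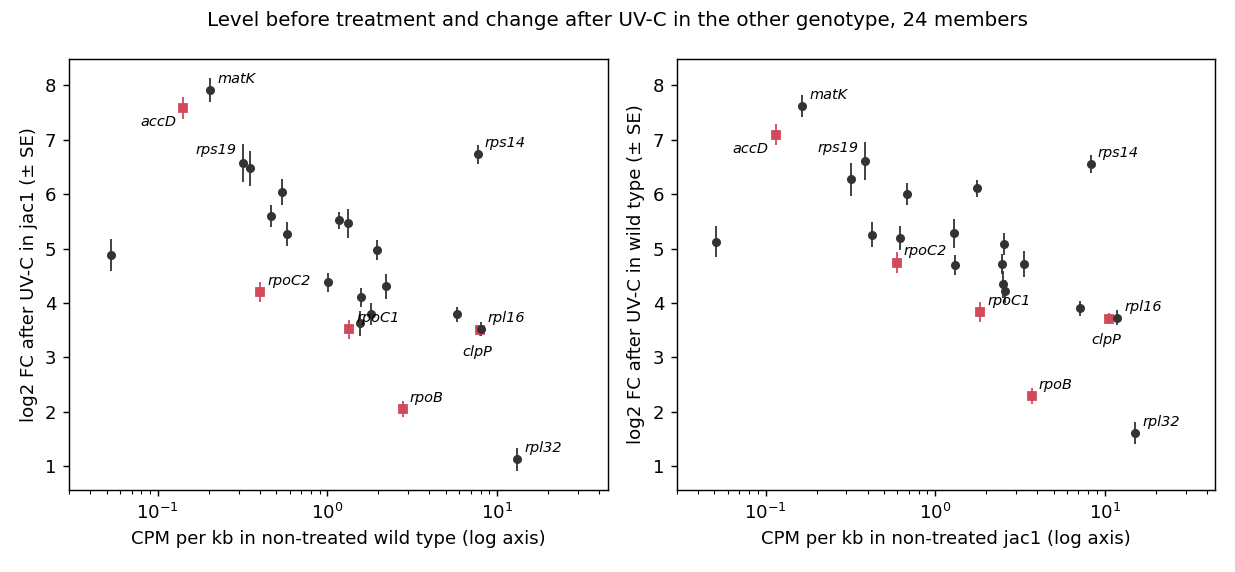
Level before treatment in one genotype (CPM per kb, log axis) against the log2 FC after UV-C (± SE) in the other, which share no libraries, for 24 members; red squares are the 5 NEP-read genes. Points fall from *matK* and *accD* at the upper left to *rpl32* at the lower right, with *rps14* above the rest at a high level.

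Against the other chloroplast-encoded genes of the same library, most members fell. The 5 NEP-read genes took 11.2, 10.2 and 12.8% of the chloroplast protein-coding reads in the untreated wild type and 1.01, 0.922 and 0.994% after UV-C. In *jac1* the values were 12.2, 13.8 and 14.3%, and then 0.930, 0.994 and 1.05%. No sample of one treatment came near those of the other. *rpoB* alone went from 5.58% to 0.196% in the wild type and from 6.52% to 0.204% in *jac1* (means, n = 3), and *rpl32* from 1.34% to 0.0289% in the wild type.

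Other members of the list went from 10.4 ± 0.526% to 2.57 ± 0.0804% in the wild type and from 11.6 ± 0.0901% to 2.67 ± 0.0914% in *jac1* (SD, n = 3). Photosynthesis and related genes took the rest, 78.2 ± 0.815% before and 96.5 ± 0.0960% after UV-C in the wild type. Of these, *psbA* and *rbcL* had the most reads, 897909 and 818085 over the 12 libraries. Their log2 FC against all genes in the wild type was 7.90 and 8.65, so the shares depend largely on these genes. *accD*, in contrast to the other NEP-read genes, had 0.129% in the wild type under both conditions and went from 0.0922% to 0.135% in *jac1*.

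**Figure D5:**
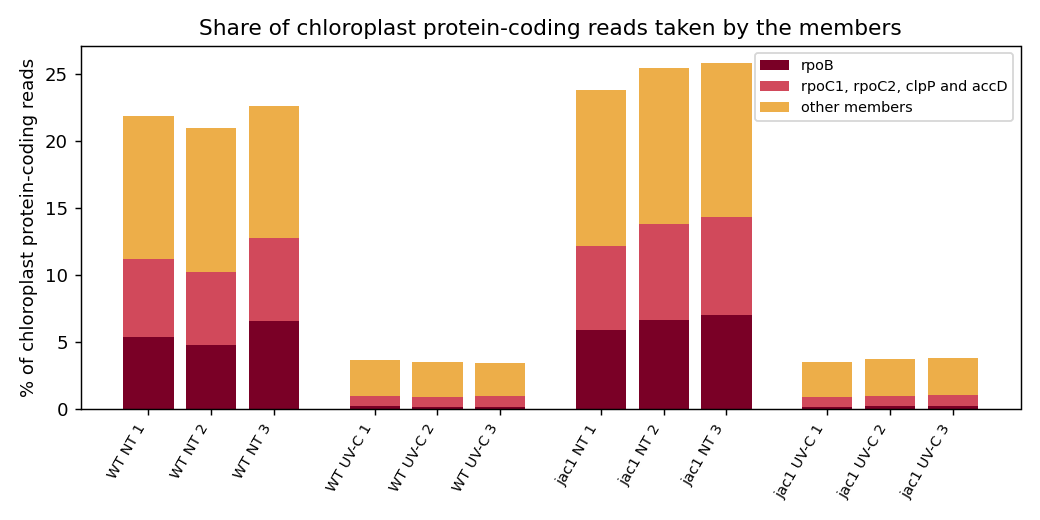
Share of the chloroplast protein-coding reads of each sample taken by *rpoB* (dark red), by the other 4 NEP-read genes (red) and by all other members (yellow), stacked from 0, for the untreated (NT) and UV-C samples of the wild type (WT) and *jac1*. The stacked share lies above 20% in every untreated sample and below 4% in every UV-C sample.

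These shifts were tested in a separate fit of the 73 chloroplast-encoded protein-coding genes, with TMM factors over them and Benjamini-Hochberg adjustment over 73 genes in edgeR's quasi-likelihood test. In the wild type 14 of the 26 members were called lower, where 27.4% of all 73 were, and 1, *matK*, higher, where 23.3% were. In *jac1* the same 14 were lower (28.8% of all) and *matK* and *accD* higher (30.1% of all). The 14 were all 4 polymerase genes, *clpP*, *ycf1*, and 8 ribosomal protein genes, among them *rpl14*, *rpl16*, *rpl22*, *rpl32*, *rpl36* and *rps3*. Of these 8, 7 belong to the cluster that ends with *rpoA*, *rpl32* being the exception. No other member was called. Outside the members, 6 of the 47 photosynthesis and related genes were called lower and 16 higher in the wild type, and 7 and 20 in *jac1*. *psaJ* fell furthest of these, with a log2 FC of -4.10 in the wild type and -4.465 in *jac1*. Falls as deep as that of *rpoB*, given below, were thus not limited to members.

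On this scale *rpl32* had a log2 FC of -4.58 (SE 0.19) in the wild type and -4.95 (SE 0.19) in *jac1*, and *rpoB* one of -3.88 (SE 0.11) and -4.03 (SE 0.11). *clpP* (-2.46, SE 0.12), *rpl16* (-2.46, SE 0.13), *rpoC1* (-2.34, SE 0.14) and *rpl14* (-2.28, SE 0.15) came next in the wild type. *rpoA* and *rpoC2* had -1.49 (SE 0.19) and -1.44 (SE 0.16). The call nearest the threshold was that of *ycf1* in the wild type (-1.05, SE 0.33, adjusted p = 0.00282 by the quasi-likelihood test of edgeR, Benjamini-Hochberg adjusted). *matK* had 1.45 (SE 0.24) in the wild type and 1.85 (SE 0.26) in *jac1*. *accD* had 0.94 (SE 0.30), which was not called, and 1.54 (SE 0.33), which was.

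The zero of this scale depends on the factors chosen. With the chloroplast total in place of TMM, the median log2 FC of the 73 genes moved from 0.09 to -0.85 in the wild type and from 0.05 to -0.92 in *jac1*, 19 and 18 members were called lower, and none was called higher. *matK* then had 0.50 and 0.89. Dropping a library changed single calls near the threshold in the wild type: without untreated replicate 1 *ycf1* was not called (-0.88), without replicate 2 *rpl36* was not (-1.03, adjusted p = 0.0433 in the same test), without replicate 3 *accD* was (1.15), and without UV-C replicate 2 *accD* was (1.01). In *jac1* *ycf1* was lost without untreated replicate 1 (-0.84) or 2 (-0.96).

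Between genotypes, no member was called before treatment. In untreated plants 0 of 26 members were called by the quasi-likelihood test of edgeR, Benjamini-Hochberg adjusted, where 1.03% of all genes tested were higher and 0.915% lower in *jac1*, and DESeq2 and edgeR's likelihood ratio test also called 0. At an unadjusted p under 0.05 stood 7 members (30.0% of all genes tested), and 19 of 26 had a log2 FC above 0, with a median of 0.35 (all genes tested, -0.01; 73 chloroplast-encoded genes, 0.23). *clpP* had the lowest adjusted p, 0.0150 with a log2 FC of 0.42 (SE 0.11). *rpl16* followed with 0.56 (SE 0.15, adjusted p = 0.0207), and *rpoB* had 0.42 (SE 0.15, adjusted p = 0.0730), *rpoC1* 0.47 (SE 0.21) and *rpoC2* 0.58 (SE 0.24). *accD* had -0.28 (SE 0.46). In 6 of 26 members, among them *rpoB*, *clpP*, *rpl14*, *rpl16* and *rpl33*, all 3 samples of *jac1* were above all 3 of the wild type, as in 16.5% of all genes tested. On the scale of the chloroplast genes alone, 0 members were called (0% of all 73) and the median log2 FC was 0.06, with 2 members at an unadjusted p under 0.05. The flower markers given above were lower in every *jac1* library than in every wild-type one, and their part in the differences between genotypes was not tested.

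After UV-C no member was called between the genotypes either. The 3 samples of *jac1* and of the wild type overlapped in all 26 members. Of all genes tested, 26.8% had every *jac1* sample above every wild-type sample, and 23.9% had every one below. By the quasi-likelihood test 0 members were called (2.52% of all genes tested higher, 1.69% lower), and DESeq2 and the likelihood ratio test also called 0. In the quasi-likelihood test 4 members had an unadjusted p under 0.05 (49.9% of all genes tested). *rpl16* had the lowest adjusted p, 0.0224 with a log2 FC of 0.36 (SE 0.11) by the quasi-likelihood test of edgeR, Benjamini-Hochberg adjusted, and *rpl20* a log2 FC of 0.46 (SE 0.15, adjusted p = 0.0263). NEP-read genes lay between 0.04 (*rpoC2*) and 0.21 (*accD*). These values turned negative once scaling used library size only, where the median of all genes was -0.27.

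The difference between the genotypes in their change after UV-C, the interaction, was called in 0 of 26 members (2.11% of all genes tested higher, 1.77% lower), with 1 at an unadjusted p under 0.05 (36.8% of all genes tested) and 0 called by DESeq2 and the likelihood ratio test. *rps3* had a log2 difference of -0.72 (SE 0.36), *rpoC2* -0.54 (SE 0.28), *rpoB* -0.24 (SE 0.20), *clpP* -0.21 (SE 0.14) and *accD* 0.49 (SE 0.48).

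Nuclear genes for partners of the members showed no change of this size. Of the nuclear genes for plastid ribosomal proteins, 32 of 33 could be tested, and 0 were called after UV-C in either genotype (7 in the wild type and 14 in *jac1* had a false discovery rate under 0.01 with a smaller fold, where 34.7% and 48.4% of all genes tested were under 0.01), with a median log2 FC of 0.04 and 0.00. Their range was -0.35 to 0.34 in the wild type. The 12 PEP-associated proteins, which bind the bacterial-type core, had a median of -0.07 in the wild type and -0.57 in *jac1*, again with 0 called. Of these 12, 4 in the wild type and 9 in *jac1* had a false discovery rate under 0.01 with a smaller fold. *PTAC6* and *PTAC2* of this list had -0.58 (SE 0.050) and -0.66 (SE 0.066) in the wild type, and -0.74 (SE 0.050) and -0.74 (SE 0.067) in *jac1*. *FSD2*, an iron superoxide dismutase of the same list, had 0.61 (SE 0.089) in the wild type. In the interaction 6 of the 12 had a false discovery rate under 0.01, beside 13.4% of all genes tested, and 0 were called, with a median log2 difference of -0.39.

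Among 8 genes for NEP and for sigma factors, 0 were called after UV-C. A false discovery rate under 0.01 with a smaller fold was found for 5 in the wild type and 4 in *jac1*, beside 34.7% and 48.4% of all genes tested. *RPOTP*, a NEP gene listed beside *RPOTMP*, had 100.6 ± 2.63 CPM in the untreated wild type and 69.3 ± 2.07 CPM after UV-C (SD, n = 3), a log2 FC of -0.54 (SE 0.063), and 88.2 ± 5.82 and 48.7 ± 3.49 CPM in *jac1*, one of -0.86 (SE 0.065). These were the lowest values of the 8 genes, whose median log2 FC was -0.27 in the wild type and -0.09 in *jac1*. *SIG5*, a sigma factor of PEP known for its response to light and stress, was the one gene of these lists called between genotypes. It had 21.7 ± 5.85 CPM in the untreated wild type and 48.7 ± 8.11 CPM in untreated *jac1*, a log2 FC of 1.17 (SE 0.16, adjusted p = 1.86e-04 by the quasi-likelihood test of edgeR, Benjamini-Hochberg adjusted). After UV-C it had 40.2 ± 4.19 and 72.7 ± 4.55 CPM. None of the 8 nuclear Clp core subunits or the 4 nuclear subunits of the acetyl-CoA carboxylase was called after UV-C, with medians of 0.09 and 0.08 in the wild type and 0.18 and 0.23 in *jac1*. With a smaller fold, 2 Clp and 0 carboxylase subunits in the wild type, and 7 and 3 in *jac1*, had a false discovery rate under 0.01.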

How the data were processed

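RNA of whole rosettes was sequenced by the study after poly-T bead selection. The authors aligned reads with STAR 2.5.2b and deposited raw read counts per gene from featureCounts (Subread 1.6.2, Araport11 annotation). By the header of the deposited counts, reads with several alignments or over several genes were left out and strand was not used. Gene types came from RefSeq's TAIR10.1 annotation.

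The 20105 protein-coding genes with 5 or more reads in 3 or more samples were fitted in R 4.3.3 with edgeR 4.0.16, TMM factors and one mean per group over 12 samples, and tested by the two-sided quasi-likelihood test with Benjamini-Hochberg adjustment. A second fit held the 73 chloroplast-encoded genes. A standard error is the log2 FC divided by the root of F. The second fit borrows nearly all of its spread across genes (prior degrees of freedom 218, against 5.559 in the first). Its p-values are therefore small, and its SEs, taken from the same F, rest on the same borrowed spread. Tested on simulated data for UV-C against non-treated wild type with a log2 change of 2, the fits found 197 of 200 and 20 of 20 changed genes, with 0 and 0 false calls, among 20105 and 73 genes. The changed genes had an expected mean over 20 reads and moved up or down at random. Genes with as few untreated reads as the weak members, and shifts in one direction, were thus not covered.

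Values were given in every sample for the NEP-read genes, *rpoA*, *matK*, *ycf1* and, among ribosomal protein genes with over 3 reads in an untreated library of both genotypes, the 3 with the largest and the 3 with the smallest change in the wild type. Members, lists and alternatives were chosen with earlier results of these data known. Alternatives were the likelihood ratio test, DESeq2 1.42.0, other scalings, filters, gene sets, thresholds and samples, a replicate block, and each sample left out. Counting intervals cover counting error only. The depth ranges stand in the report. The values of some single members are not reported here, although counts over the list hold them.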

Additional observations from a re-analysis of the deposited data

How the results depend on the processing

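Over 25 alternatives, 649 of 650 values of the 26 members after UV-C in the wild type and 646 of 650 in *jac1* kept their direction and call. All 5 exceptions were *rpl32*: 1.61 and 1.13 were no longer called by glmTreat against a log2 FC of 1, and in *jac1* it had 0.81 with library size only, 0.997 with a block for the numbers in the library names, and 0.96 without UV-C replicate 1. Members called higher numbered 26 in all leave-one-out fits in the wild type and 25 to 26 in *jac1*, and 0 in every alternative between genotypes and in the interaction.

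With library size only, which moved the median of all genes to -0.27 between genotypes after UV-C, the differences of *rpoB* (-0.084), *rpoC1* (-0.11), *rpoC2* (-0.23), *accD* (-0.053) and *clpP* (-0.054) turned negative. Leaving out single libraries gave *rpoC2* values from -0.052 to 0.205. In the chloroplast-only fit, members called higher were 0 in both genotypes with the chloroplast total in place of TMM, and 1 to 2 in the wild type and 2 to 2 in *jac1* over leave-one-out fits; *accD* in the wild type had -0.014 with that total. Members called lower numbered 13 to 15 and 12 to 14 over leave-one-out fits. With all chloroplast-encoded genes as denominator, the share of the other members in non-treated *jac1* was 11.3%, and that of the photosynthesis genes 75.8% and 95.8% in the wild type and 72.9% and 95.6% in *jac1*, before and after UV-C.

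A replicate block by the numbers of the sample titles left 26 and 26 members called higher after UV-C, one by library names 26 and 25. Deviations of same-numbered samples had correlations of -0.12 to 0.25 over 18 pairs (titles) and -0.13 to 0.08 over 10 pairs (library names). Of these, 3 and 0 were over 0.1. With so few samples per group and no differently numbered pairs beside them, these values cannot decide whether the numbers pair the samples. The fit of only the groups compared has no interaction. Depth limits the members with few reads before treatment, among them *rps15*, *rps16*, *rps18*, *rps19*, the first exon of *rps12*, *rpl20*, *accD*, *ycf1* and *matK*.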
